A study of Homo sapiens with 20 samples.

Results

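Genes that moved the same way at all EGF times, from 12 to 72 h, were followed in MDA-MB-468, an epithelial cell line from a triple-negative breast cancer that is known for its very high EGFR level. Sequencing of mRNA gave 4 untreated control libraries and 4 libraries at each of the EGF times 12, 24, 48 and 72 h, 20 libraries in all. Cells were grown in DMEM:F12 with 5% FBS, starved of serum for 24 h, and given EGF at 50 ng/mL. All groups were seeded and harvested together, and differed, per the labels, in when EGF was added. The shared response was taken from the raw counts of the 16 EGF libraries against the 4 controls, as the mean of the EGF group means minus the control mean in one model with 5 group means. All results come from 1 cell line, and the 4 EGF times were compared with the same 4 control libraries, so the comparisons are not independent of each other.

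Of 60271 genes in the tables, 33535 had at least 1 count and 16522 passed the filter on low counts and were tested. Every adjusted p below is from the quasi-likelihood test of edgeR, adjusted by Benjamini-Hochberg across these genes, and 0.05 was the threshold. The filter asks for enough counts in only as many libraries as a single group holds. A gene with no count in the control could thus be tested only through EGF libraries, and it could not be lower. Such genes tilt the shares toward higher, in the gene lists below as among all tested genes. List members that failed the filter are not counted. On the shared contrast, 5029 genes were higher with EGF (30.4% of those tested) and 5521 were lower (33.4%). Genes past the threshold in the same direction at each of the 4 times numbered 1858 higher (11.2%) and 1714 lower (10.4%), 3572 in all, and these are the genes described here. A stricter set is called sustained: at least 1.5-fold higher or lower at each time, with every one of the 16 EGF libraries above, or below, each of the 4 controls. It held 922 genes higher (5.58%) and 498 lower (3.01%). Since the genes were picked by these values, their fold changes against the control are given as a description, with no test. With scaling by library size only, 35.6% rather than 47.7% of the genes called on the shared contrast were higher, and the median log2 difference of all genes was -0.147 instead of -0.0239.

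EGF binds EGFR, a receptor tyrosine kinase that dimerizes and signals through RAS and the kinases MEK and ERK. ERK activity induces transcription factors of the FOS, JUN and ETS families, which drive later target genes, and it induces phosphatases and adaptors that dampen the same pathway. In breast and skin epithelia the pathway is known for proliferation, migration and changes in keratinocyte-type differentiation. In MDA-MB-468, EGF is widely used to set off an epithelial-mesenchymal transition (EMT), in which epithelial cells take on features of migrating mesenchymal cells.

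Total counts per library ranged from 15611961 to 25856953 with a median of 20398047. Mitochondrial genes held 9.03 to 12.6% of counts in the control libraries, 7.69 to 11.3% at 12 h, 9.83 to 16.9% at 24 and 48 h and 12.3 to 16.4% at 72 h. Without these genes, 1851 genes rose and 1726 fell at every time, against 1858 and 1714 with them. Epithelial markers were present throughout, EPCAM at 169 to 192 CPM (counts scaled to library size by TMM) in the controls and 138 to 225 CPM with EGF, and PGR had no count in any library. Among 4 leukocyte markers, the summed level was 1.11 to 2.23 CPM in the controls and 14.2 to 29.9 CPM with EGF, nearly all of it from CD68, a lysosomal protein that many cells make, while PTPRC had at most 8 counts and CD3E at most 2. Among 6 fibroblast markers the sum was 5.12 to 7.9 CPM against 8.99 to 15 CPM, nearly all of it from COL1A1, with COL1A2, COL3A1 and LUM at 1 count or fewer in every library.

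The promoters of some of the genes that rose hold the letters bound by AP-1, the dimer of FOS and JUN proteins. They are shown because this motif stood in 12.7% of the sustained higher promoters against 5.03% of all tested genes, and in 5.88% of the sustained lower. The promoters shown were picked for holding a match. Among other named genes that rose, SH2D1B and FAM25A also held a match, while others had none, among them EGFR, CD44, TMSB4X and SERPINB7. ZNF138, which fell, held a match. The sequences are RefSeq promoters of GRCh38.p14, 250 bases before to 50 after the start of the gene, 5′ to 3′ on the gene's strand. Capitals mark TGANTCA, the AP-1 letters, and TATAAA, the TATA box. They belong to IL1RL1 (chr2:102337007-102337306, plus strand), SPRR1B (chr1:153030953-153031252, plus strand), CXCL8 (chr4:73740319-73740618, plus strand), ANXA2 (chr15:60397937-60398236, minus strand) and MT2A (chr16:56608334-56608633, plus strand).
IL1RL1: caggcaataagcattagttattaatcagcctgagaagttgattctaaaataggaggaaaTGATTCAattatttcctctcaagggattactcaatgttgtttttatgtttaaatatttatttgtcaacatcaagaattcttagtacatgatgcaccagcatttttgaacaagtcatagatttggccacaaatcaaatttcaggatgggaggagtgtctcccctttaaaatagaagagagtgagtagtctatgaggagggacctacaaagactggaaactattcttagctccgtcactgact
SPRR1B: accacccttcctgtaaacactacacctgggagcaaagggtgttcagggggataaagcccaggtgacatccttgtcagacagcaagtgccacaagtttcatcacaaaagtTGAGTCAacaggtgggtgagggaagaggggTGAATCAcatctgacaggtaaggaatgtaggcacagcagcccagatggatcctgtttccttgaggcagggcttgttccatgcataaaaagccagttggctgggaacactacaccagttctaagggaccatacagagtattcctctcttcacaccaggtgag
CXCL8: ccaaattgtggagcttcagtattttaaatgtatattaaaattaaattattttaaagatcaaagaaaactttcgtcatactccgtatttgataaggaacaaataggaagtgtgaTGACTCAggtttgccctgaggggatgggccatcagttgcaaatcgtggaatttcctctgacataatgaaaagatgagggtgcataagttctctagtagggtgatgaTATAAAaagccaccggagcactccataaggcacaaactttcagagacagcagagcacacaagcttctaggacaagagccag
ANXA2: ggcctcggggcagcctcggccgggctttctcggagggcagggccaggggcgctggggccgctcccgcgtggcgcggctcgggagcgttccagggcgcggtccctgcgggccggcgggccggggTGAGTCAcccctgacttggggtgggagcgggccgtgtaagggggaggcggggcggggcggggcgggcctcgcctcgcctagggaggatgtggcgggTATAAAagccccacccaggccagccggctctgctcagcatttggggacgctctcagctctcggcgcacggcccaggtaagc
MT2A: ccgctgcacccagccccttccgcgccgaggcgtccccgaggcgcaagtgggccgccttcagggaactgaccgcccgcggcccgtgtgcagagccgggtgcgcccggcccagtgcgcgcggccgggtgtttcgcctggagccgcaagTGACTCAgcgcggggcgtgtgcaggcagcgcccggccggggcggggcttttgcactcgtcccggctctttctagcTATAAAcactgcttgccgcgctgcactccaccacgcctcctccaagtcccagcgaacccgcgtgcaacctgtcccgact

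AP-1 matches began -191 bases from the start in IL1RL1, -141 and -111 in SPRR1B, -137 in CXCL8, -127 in ANXA2 and -104 in MT2A. A TATA box began at -31 in CXCL8, at -31 in ANXA2 and at -29 in MT2A. Promoters matched 636 of the 922 sustained higher genes, 340 of the 498 sustained lower genes and 11369 of the 16522 genes tested. TGANTCA, which reads as itself on the other strand, stood in 12.7% of the sustained higher promoters, 5.88% of the sustained lower, 5.03% of all tested genes and 7.76% of the 27305 promoters in the table. The ETS letters CCGGAAGT, searched on both strands, stood in 1.1% of the sustained higher, 2.94% of the sustained lower, 8.33% of all tested genes and 4.44% of the whole table. For TATAAA on both strands the shares were 12.9%, 11.2%, 6.34% and 12%. Genes that were low in the control made up more of the sustained higher set, with 37% of them under 1 CPM in the control against 17.7% of all tested genes. The filter adds to this difference, since genes with few counts in every library were not tested. The part of this difference in the motif shares was not tested. The other motifs searched on both strands were CRE (TGACGTCA), E2F (TTTCCCGC or TTTGGCGC), NF-kB (GGACTTTCC), the serum response element (CATATTAGG) and the sterol response element (TCACCCCAC). Each stood in at most 2.36% of the promoters of either sustained set and in at most 3.63% of those of all tested genes. A match describes letters only.

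**Figure D1:**
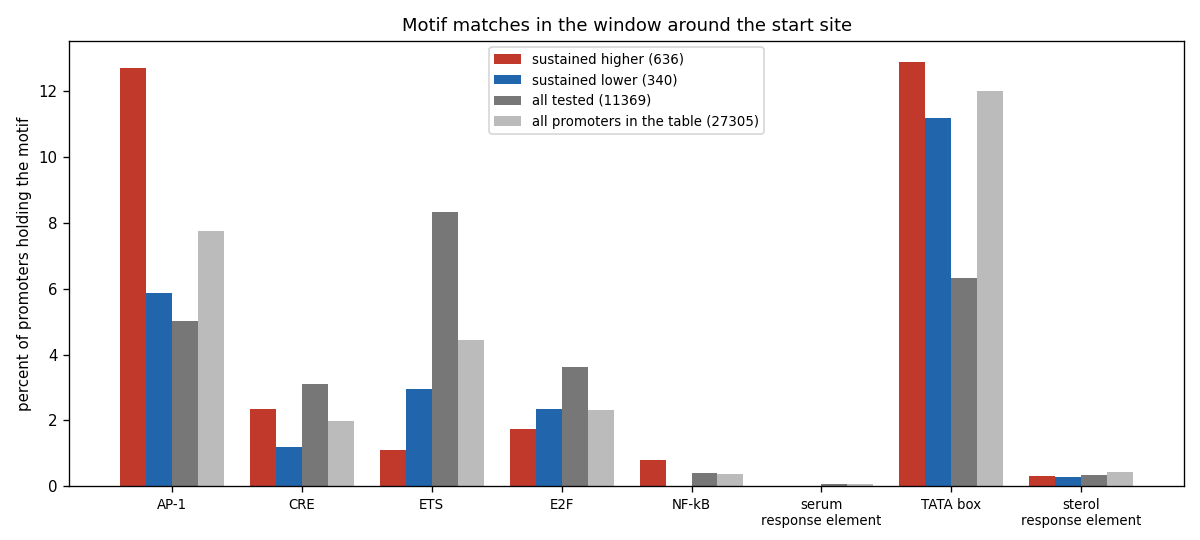
Percent of promoter windows (y axis) that hold each motif (x axis), for sustained higher, sustained lower, all tested genes and the whole promoter table, with the number of promoters in the legend. The AP-1 bar is 12.7% for sustained higher genes against 5.03% for all tested genes, and the ETS bar is 1.1% against 8.33%.

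The genes that rose at every time held 7.96% ± 0.195 (SD, n = 4) of all counts in the control. At 12 h their share was 16.6% ± 0.515 and at 24 h 15.6% ± 0.799, and it went on to 12.9% ± 0.528 (48 h) and 15.9% ± 0.43 (72 h; SD, n = 4 each). For the genes that fell at every time, the share went from 13.4% ± 0.668 in the control to 6.78% ± 0.128 (12 h), 7.21% ± 0.256 (24 h), 9.15% ± 0.382 (48 h) and 7.17% ± 0.269 (72 h; SD, n = 4 each). The shares at 48 h lay nearest to the control in both sets.

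**Figure D2:**
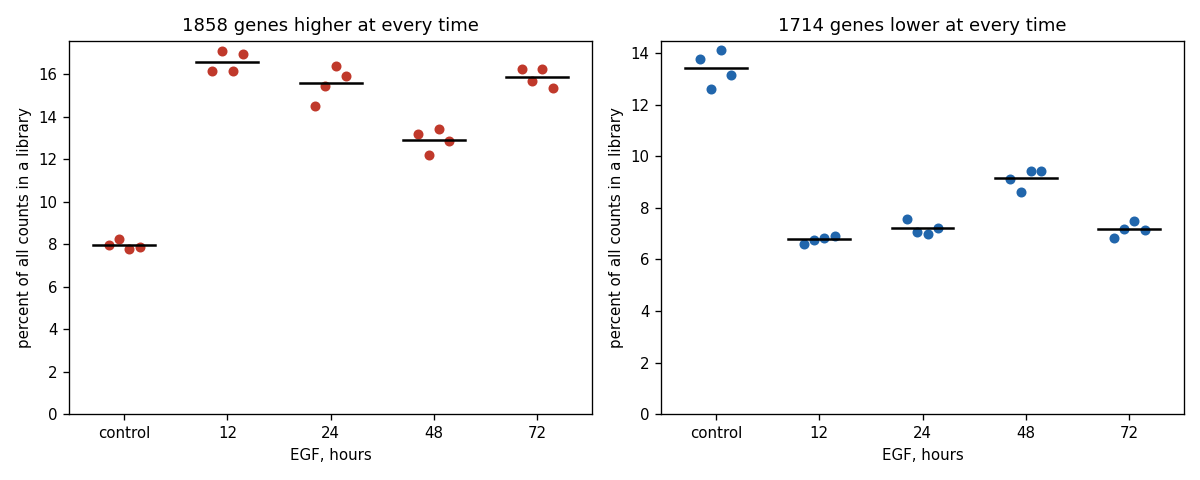
Percent of a library's counts (y axis, from 0) held by the genes higher at every time (left) and lower at every time (right), by hours of EGF. Points are libraries and lines are group means. All EGF libraries lie above the controls on the left and below them on the right, as the choice of genes fixes, and the 48 h libraries lie nearest to the controls.

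The largest rise in CPM among the sustained genes was in the receptor itself. EGFR (ENSG00000146648, chr7:55019021-55211628, plus strand, 34 merged exons) stood at 3360, 3530, 3420 and 3580 CPM in the 4 controls. It stood at 11400, 12100, 11600 and 11900 CPM after 12 h, at 7000, 7690, 9050 and 7420 CPM after 24 h, at 5200, 5730, 6140 and 5350 CPM after 48 h, and at 6010, 5710, 6130 and 5620 CPM after 72 h. All 16 EGF libraries were above all controls, and those of 12 h were above all others. The log2 difference was 1.09 ± 0.0565 (SE) over the 4 times. In the test between EGF times, which does not use the controls, EGFR was 1.00 lower at 72 h than at 12 h on the log2 scale (adjusted p = 7.1e-12). ERBB3, a relative with little kinase activity of its own, was lower at every time, with log2 changes from -0.667 to -0.334. ERBB2 passed the threshold on the shared contrast (log2 difference -0.832, adjusted p = 7.3e-07) but not at every time.

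The adhesion receptor CD44 went with EGFR in its order of times. Its controls lay at 2260 to 2480 CPM, its 12 h libraries at 7150 to 7350 CPM, and its 48 h libraries at 3610 to 3910 CPM. ANXA2, a calcium-dependent membrane protein that binds plasminogen, rose from 947 to 1160 CPM in the controls to 5030 to 5150 CPM at 12 h, and was at 1610 to 1750 CPM at 48 h and 2120 to 2210 CPM at 72 h. S100A11, a calcium-binding protein, had a log2 difference of 1.00 ± 0.0563 (SE). TMSB4X, which binds actin monomers, had its highest level at 72 h instead, at 6060 to 6770 CPM against 1910 to 2220 CPM in the controls. MT2A, a metal-binding metallothionein, stood at 453 to 648 CPM in the controls and at 1770 to 3200 CPM over the 16 EGF libraries. Metallothionein genes are near-identical, and how reads were shared among them is not given in the sources used here.

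**Figure D3:**
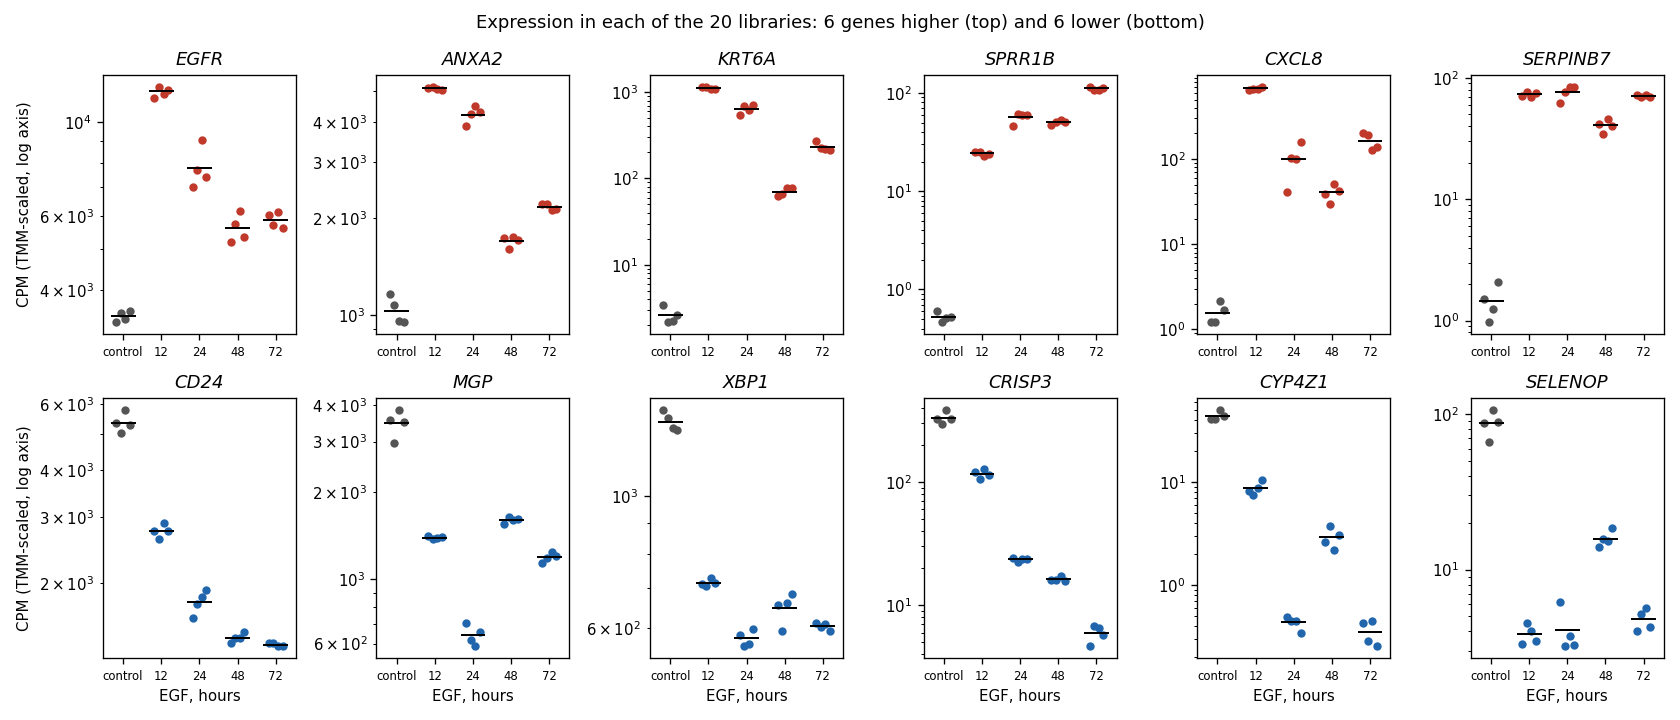
CPM (log axis, scale set for each gene) in each library for 6 genes that rose (top) and 6 that fell (bottom), by hours of EGF. Points are libraries and lines are group means. KRT6A and CXCL8 are highest at 12 h, SPRR1B at 72 h, and CRISP3 is lower at each later time.

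The strongest rises were in genes with almost no counts in the control. SH2D1B, an adaptor of signaling receptors in immune cells, had no count in any control and 0.978 to 16.4 CPM in the EGF libraries. Its mean with EGF was at least 48.9-fold higher than the floor of 3 counts per control library. IL1RL1, the receptor for interleukin-33, was at 0.0502, 0, 0.0854 and 0 CPM in the controls. It reached 70.5, 74.1, 72.2 and 65.9 CPM at 12 h, 14.8, 18.7, 19.4 and 21.2 CPM at 24 h, 6.76, 4.3, 10.6 and 9.52 CPM at 48 h, and 60.2, 60.2, 46.8 and 46.7 CPM at 72 h. Its mean with EGF was at least 274-fold higher than the floor, and its times fell into a high pair at 12 and 72 h and a low pair at 24 and 48 h. MYH16, annotated as a myosin heavy chain pseudogene, was at least 109-fold higher, and 11.2% of its exon bases overlap a gene on the other strand. CEACAM5, a cell surface adhesion protein, was at 0.042 to 0.171 CPM in the controls and 5.14 to 57 CPM with EGF. In all, 142 of the 1858 genes that rose had 3 counts or fewer in every control library. The control could therefore set only a bound on their fold change. Exon bases shared with another gene make reads uncertain for further genes described below, among them DUSP6 (40.5%, other strand), VIM (24.4%, other strand), IER3 (26.5%, other strand), KLK6 (20.3%, other strand), TAP2 (32.3%, same strand) and SERPINB2 (19.9%, same strand).

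Protease inhibitors of serpin clade B, which mostly act inside cells, rose together. Of 13 listed, 9 were tested. Of these, 8 were higher on the shared contrast. The same 8 rose at every time (88.9% beside 11.2% of all tested genes) and were sustained at 1.5-fold. The median log2 difference was 3.79, beside -0.0239 for all genes. SERPINB3 stood at 0 to 0.171 CPM in the controls and at 11.3 to 114 CPM with EGF, and SERPINB4 at 0 to 0.128 and 6.55 to 68.3 CPM. These neighbours are near-identical in sequence, so their separate levels are uncertain, and 34.9% of the exon bases of SERPINB3 overlap a gene on the other strand. SERPINB7 was at 1.51, 0.967, 1.24 and 2.07 CPM in the controls. It was at 70.2, 76.9, 69.4 and 75 CPM after 12 h, at 61.7, 75.9, 84.6 and 83.4 CPM after 24 h, at 41.8, 34.5, 45.7 and 40.3 CPM after 48 h, and at 71.8, 69.5, 72.3 and 69.9 CPM after 72 h. Only the 48 h libraries of SERPINB7 stood apart from those of the other EGF times, below them. SERPINB5, known as maspin, had log2 changes of 5.1, 4.59, 1.91 and 3.56 at the 4 times, and SERPINB2, an inhibitor of plasminogen activators, of 8.97, 7.32, 3.99 and 6.73. SERPINB9, an inhibitor of granzyme B, had a log2 difference of 0.181 and an adjusted p of 0.16.

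Genes of the cornified envelope, the protein shell that keratinocytes build as they mature, were mostly higher. Of 19 listed, 10 were tested. Of these, 8 were higher and 2 lower, and 6 rose at every time (60% beside 11.2% of all tested genes). The median log2 difference was 3.63. SPRR1B, a small proline-rich envelope precursor, stood at 0.603, 0.462, 0.512 and 0.529 CPM in the controls. It stood at 25.1, 25, 22.6 and 24 CPM at 12 h, at 46.6, 61.2, 59.7 and 60.1 CPM at 24 h, at 47, 50.8, 53.3 and 50.4 CPM at 48 h, and at 116, 108, 108 and 112 CPM at 72 h. Its 72 h libraries were above all others, and the 72 h level was 2.20 higher than at 12 h on the log2 scale (adjusted p = 1.1e-16). SPRR3, SPRR2A and SPRR2D had their highest log2 changes at 72 h as well, at 8.5, 7.56 and 8.12, though SPRR2 genes are near-identical and share reads in an unknown way. TGM1, which crosslinks the envelope, and CNFN were lower, each with a log2 difference of -0.765. ALOXE3, a lipoxygenase of the skin barrier, was at 0.0481 to 0.341 CPM in the controls and at 5.85 to 11 CPM with EGF.

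Keratins of basal and stressed epithelia followed the same direction, and most of them peaked at 12 h. Of 12 tested genes on this list 11 were higher, 7 of them at every time (58.3% beside 11.2% of all tested genes). The median log2 difference was 1.82. KRT6A, a keratin of wounded epidermis, went from 3.37, 2.14, 2.22 and 2.6 CPM in the controls to 1150, 1160, 1080 and 1080 CPM at 12 h. It was at 541, 686, 623 and 719 CPM at 24 h, at 61.7, 65.4, 76.9 and 77 CPM at 48 h, and at 269, 225, 219 and 213 CPM at 72 h. No pair of EGF groups overlapped, and the 72 h level was 2.27 lower than at 12 h on the log2 scale (adjusted p = 4.2e-15). KRT6B (log2 difference 5.11) is near-identical to KRT6A and its share of reads is uncertain. KRT34, a hair keratin, rose from 0.555 to 1.64 CPM in the controls to 97.3 to 112 CPM at 72 h. KRT5 and KRT17 were higher on the shared contrast, at log2 differences of 0.983 and 1.75, but stood near the control at 48 h, with log2 changes of -0.0663 and -0.157. TP63, which encodes a transcription factor of basal cells, had a log2 difference of -0.0519 and an adjusted p of 0.84.

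Secreted proteases and their regulators were the next group. All 7 kallikrein-related peptidases tested, of 15 listed, were higher, 6 of them at every time (85.7% beside 11.2% of all tested genes). The median log2 difference was 1.5. KLK5, which starts the cascade of skin kallikreins, had log2 changes of 1.57, 1.37, 1.24 and 1.37, and KLK6 of 3.13, 2.36, 1.59 and 2.58. In plasminogen activation and coagulation, 11 of 12 genes were higher and none lower, with a median of 2.19. Of the 12, 9 rose at every time (75% beside 11.2% of all tested genes). PLAUR, the receptor of urokinase, had a log2 difference of 2.45, PLAT, tissue plasminogen activator, of 6.14, and F3, tissue factor, of 2.86. SERPINE2, an inhibitor of plasminogen activators, rose as well, with a log2 difference of 4.72. TFPI, an inhibitor of tissue factor, had a log2 difference of -0.0987 and an adjusted p of 0.22. Among 11 metalloproteinases and their inhibitors tested, of 21 listed, 8 were higher and 1 lower. At every time 6 rose (54.5% beside 11.2% of all tested genes). MMP7 was 1.75 higher and TIMP2 1.35 higher on the log2 scale.

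Most matrix, adhesion and cytoskeletal genes were higher. Of 12 laminin and basement membrane genes 11 were higher, with a median of 1.16, and 8 rose at every time (66.7% beside 11.2% of all tested genes). LAMB3 and LAMA3, which encode laminin chains, had log2 differences of 5.14 and 2.1. Of 19 integrin subunits 14 were higher, and 11 rose at every time (57.9% beside 11.2% of all tested genes). ITGA2, a collagen receptor subunit, had a log2 difference of 3.62, ITGA5, a fibronectin receptor subunit, of 2.63, and ITGB4, which pairs with ITGA6 to bind laminin, of 2.1. ITGAE fell at every time, with a log2 difference of -0.618. Of 26 mesenchymal and matrix genes 20 were higher and 2 lower, and 11 rose at every time (42.3% beside 11.2% of all tested genes). VIM, the intermediate filament of mesenchymal cells, stood at 18.6 to 22.1 CPM in the controls. It stood at 191 to 224 CPM at 12 h, 372 to 396 CPM at 24 h, 89.6 to 117 CPM at 48 h and 164 to 166 CPM at 72 h. FN1, fibronectin, had log2 changes of 1.72, 2.42, 1.92 and 3.85. Transcription factors of EMT were split, with 2 of the 5 tested higher and 2 lower on the shared contrast, and a median log2 difference of 0.146. Of all tested genes 30.4% were higher and 33.4% lower on this contrast. ZEB1 was at least 3.22-fold higher with EGF than the floor and stood at 0.442 CPM on average, and SNAI1 rose by 1.59 on the log2 scale. KLF8 fell at every time, from 68.1 to 75.7 CPM in the controls to 37.3 to 67.5 CPM with EGF, TCF3 was lower on the shared contrast with -0.269, and TWIST2 had a log2 difference of 0.146 and an adjusted p of 0.39. Of 26 actin and migration genes 24 were higher, 10 of them at every time (38.5% beside 11.2% of all tested genes). They were led by FSCN1, an actin bundler, at 3.7.

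Epithelial junction genes gave no such common direction. Of 38 tested, 20 were higher and 10 lower on the shared contrast, but 3 rose and 4 fell at every time, 7.89% and 10.5% beside 11.2% and 10.4% of all genes. CDH1, E-cadherin, had log2 changes of 0.507, -0.315, -0.458 and -0.493, and EPCAM of 0.244, 0.0268, -0.197 and -0.329. GRHL3, a transcription factor of epithelial barriers, fell at every time with a log2 difference of -1.76. CDH3, P-cadherin, rose at every time with 0.822.

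Ligands of the receptor family rose beside the receptor. Of 8 tested, 5 were higher and 2 lower, and the same 5 rose at every time (62.5% beside 11.2% of all tested genes). AREG, amphiregulin, stood at 1.56, 1.89, 1.84 and 1.87 CPM in the controls. It was at 86.7, 78.3, 84.3 and 84.9 CPM at 12 h, at 31.4, 53.9, 60.3 and 67.6 CPM at 24 h, at 16.5, 12, 19 and 17.6 CPM at 48 h, and at 115, 94.4, 72.8 and 72.7 CPM at 72 h. The 48 h libraries were the lowest with EGF, and those of 12 and 72 h overlapped. EPGN had a log2 difference of 4.04, EREG of 3.21, HBEGF of 2.94 and TGFA of 1.3. NRG2, a ligand of other family members, fell at every time, with a log2 difference of -1.69. EGF itself was at a log2 change of -2.39 at 12 h and of 0.13 at 72 h.

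Inhibitors that ERK activity induces rose at every time for 8 of 14 genes, 57.1% beside 11.2% of all tested genes. On the shared contrast 11 of the 14 were higher. DUSP6, a phosphatase that removes phosphate from ERK, was at 4.77 to 6.26 CPM in the controls. It reached 53.6 to 57.4 CPM at 12 h, 30.5 to 45.6 CPM at 24 h, 11.7 to 15.8 CPM at 48 h and 32 to 41.7 CPM at 72 h. SPRY2, SPRY4, DUSP5, DUSP7 and ERRFI1, which binds and inhibits EGFR, had log2 differences from 2.1 to 2.65, and each had its smallest change at 48 h. LRIG1, which promotes EGFR degradation, fell at every time with -1.31, and SPRY1 was lower on the shared contrast with -0.424.

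Transcription factors below ERK were less even. Of 15 AP-1 and MAF factors 11 were higher, and 6 rose at every time (40% beside 11.2% of all tested genes). FOSL1, the FOS relative FRA1, stood at 2.31 to 3.87 CPM in the controls and at 225 to 266 CPM at 12 h, 23.2 to 27.5 CPM at 48 h and 82.9 to 119 CPM at 72 h. FOS had log2 changes of 0.822, 0.654, -0.652 and 0.763, and JUN had a log2 difference of 0.073 and an adjusted p of 0.41. Of 14 immediate early genes 5 rose at every time (35.7%), among them IER3 (log2 difference 2.7), KLF6 (1.81) and MYC (0.937). EGR1 was lower with -0.399. Of 19 ETS factors 6 rose and 4 fell at every time, 31.6% and 21.1% beside 11.2% and 10.4% of all tested genes. ELK3 (2.7), ETS1 (1.55), ETV4 (1.6) and ETV5 (1.54) rose, and SPDEF, an ETS factor of luminal cells, fell with -0.693.

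Cytokines and chemokines were higher for 15 of 19 genes tested, of 27 listed. Of the 19, 11 rose at every time (57.9% beside 11.2% of all tested genes). Their median log2 difference was 1.98, and 1.72 with the 4 genes at 3 control counts or fewer set at their bound. CXCL8, a chemokine that attracts neutrophils, stood at 1.21, 1.22, 2.18 and 1.68 CPM in the controls. It was at 654, 672, 664 and 710 CPM at 12 h, at 41.6, 102, 99.2 and 157 CPM at 24 h, at 38.7, 30.1, 51.5 and 42.2 CPM at 48 h, and at 202, 190, 128 and 138 CPM at 72 h. The 12 h libraries lay far above the rest, and those of 24 and 48 h overlapped. CXCL1 (log2 difference 5.09) and LIF (3.76) also had their largest log2 change at 12 h. CCL28, a chemokine of mucosal epithelia, fell at every time, with log2 changes from -1.77 to -1.23.

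Mitotic genes were lower with EGF at every time for 13 of 28, 46.4% beside 10.4% of all tested genes. On the shared contrast 27 of 28 were lower, with a median log2 difference of -0.628. TOP2A, the topoisomerase of dividing cells, was at 285, 220, 292 and 260 CPM in the controls, at 131 to 154 CPM at 12 h, 141 to 151 CPM at 24 h, 177 to 197 CPM at 48 h and 78.6 to 93.9 CPM at 72 h. All EGF libraries lay below the controls, with those of 72 h the lowest. CENPF, of the kinetochore, and BIRC5, survivin, fell with log2 differences of -1.03 and -1.01. None of the 13 passed the sustained limit. CDKN1A, the inhibitor of cyclin-dependent kinases known as p21, rose from 57.7 to 80.3 CPM in the controls to 581 to 600 CPM at 12 h, 159 to 193 CPM at 48 h and 431 to 562 CPM at 72 h. CDKN2C and CDKN1B, other inhibitors, fell at every time, while CCNE1 (1.13) and CDK6 (2.2) rose. In DNA replication, 1 of 30 genes rose and 4 fell at every time, 3.33% and 13.3% beside 11.2% and 10.4% of all tested genes. Whether fewer cells of a kind or less RNA in each cell lowers a level cannot be told apart in such bulk libraries.

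The largest fall in CPM among the sustained genes was in CD24, a surface glycoprotein of luminal breast cells. It stood at 5330, 5030, 5780 and 5270 CPM in the controls. It was at 2750, 2620, 2900 and 2750 CPM at 12 h, at 1620, 1760, 1840 and 1920 CPM at 24 h, at 1390, 1430, 1430 and 1480 CPM at 48 h, and at 1390, 1390, 1360 and 1360 CPM at 72 h. The level at 72 h was 1.00 lower than at 12 h on the log2 scale (adjusted p = 3.5e-13). Against the control CD24 was lower and CD44, its usual partner in describing breast cancer cells, higher, while both were lower at 72 h than at 12 h. MGP, matrix Gla protein, had its lowest libraries at 24 h, at 588 to 707 CPM against 2960 to 3850 CPM in the controls. XBP1, a transcription factor of the unfolded protein response, was at 1290 to 1390 CPM in the controls and between 560 and 728 CPM in all 16 EGF libraries. HMGN2, a nucleosome-binding protein, and DBI, an acyl-CoA binding protein, fell with log2 differences of -1.11 and -0.865. ANXA2, TMSB4X, HMGN2 and CD24 have processed pseudogenes elsewhere in the genome, and how reads were shared with them is not given in the sources used here.

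Among luminal breast genes 11 of 18 were lower and 6 higher on the shared contrast, and the median was -0.668. At every time 9 fell and 1 rose, 50% and 5.56% beside 10.4% and 11.2% of all tested genes. FOXA1, a pioneer factor of luminal cells, was at 169, 185, 196 and 182 CPM in the controls and between 68.5 and 96.6 CPM with EGF. GATA3, also on this list, did not fall, at 33.8 to 37.9 CPM in the controls and 37.7 to 50.5 CPM with EGF. PRLR, the prolactin receptor, had log2 changes from -1.82 to -0.888, AZGP1, a secreted glycoprotein, from -1.31 to -0.72, and KIT from -5.54 to -2.37. Exceptions included the keratins KRT8 and KRT18, higher on the shared contrast by 1.11 and 1.35, and MLPH, of melanosome transport, which rose at every time.

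Genes of fatty acid hydroxylation and detoxification were among those that fell most. Of 13 CYP4 and drug metabolism genes 9 were lower and 3 higher, with a median of -1.49. At every time 5 fell and 2 rose, 38.5% and 15.4% beside 10.4% and 11.2% of all tested genes. CYP4Z1, a breast-enriched fatty acid hydroxylase (chr1:47067488-47118319, plus strand), stood at 41.3, 41.4, 50.2 and 43.7 CPM in the controls. It was at 8.28, 7.52, 8.84 and 10.6 CPM at 12 h, at 0.494, 0.452, 0.449 and 0.342 CPM at 24 h, at 2.6, 3.77, 2.2 and 3.08 CPM at 48 h, and at 0.424, 0.284, 0.447 and 0.255 CPM at 72 h. The libraries of 24 and 72 h overlapped and lay below the others. CYP4Z2P, its near-identical pseudogene, fell from 9.95 to 11.4 CPM in the controls to no count at 72 h, with reads that cannot be parted from those of CYP4Z1. CYP4B1 was at 20.4 to 24.5 CPM in the controls and 0.586 to 6.16 CPM with EGF, and ALDH3B2, an aldehyde dehydrogenase, at 501 to 670 and 43.4 to 370 CPM. CYP4F3, which inactivates leukotriene B4, went the other way, with a log2 difference of 2.01.

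Other strong falls were spread over functions. ATP13A5, a P5-type ATPase, was at 44.6 to 53.5 CPM in the controls and 1.66 to 6.55 CPM with EGF. SELENOP, a selenium carrier, was at 88.3, 66.7, 106 and 88.9 CPM in the controls, 3.33 to 4.52 CPM at 12 h and 14 to 18.4 CPM at 48 h, and 36.1% of its exon bases overlap a gene on the other strand. SLC15A2, a peptide transporter, IL22RA2, a soluble receptor that binds interleukin-22, and SEMA3E, a guidance molecule, had log2 differences of -3.69, -3.41 and -2.78. CRISP3, a secreted protein of glands, was at 295 to 381 CPM in the controls. It was at 105 to 127 CPM at 12 h, 22.5 to 24 CPM at 24 h, 15.7 to 17.1 CPM at 48 h and 4.66 to 6.83 CPM at 72 h, lower at each time than at the one before. IGFBP5, which binds insulin-like growth factors, and APCDD1, a WNT inhibitor, had log2 differences of -2.54 and -2.21. ELAPOR1 and FAM210B had log2 differences of -3.1 and -1.79, SCPEP1, a carboxypeptidase, of -2.29, and AP001636.3, a noncoding gene, of -3.15.

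In metabolism, 8 of 54 glycerophospholipid genes tested rose and 2 fell at every time, 14.8% and 3.7% beside 11.2% and 10.4% of all genes. Those that rose included GPAT3 (log2 difference 3.92), which adds the first fatty acid to glycerol-3-phosphate, LPCAT4 (2.01), which reacylates lysophospholipids, PLD1 (1.33), DGKA (1.62) and DGKD (1.27). CEPT1 and CHPT1, which make the final step to phosphatidylcholine, fell with -0.487 and -0.358. Of 25 genes of fatty acid synthesis, elongation and desaturation, 6 rose and 1 fell at every time, 24% and 4% of those tested. Those that rose included ELOVL4 (2.16) and ELOVL7 (1.23), and ELOVL2 fell (-0.614). In cholesterol synthesis and uptake, 14 of 24 genes were lower and 4 higher on the shared contrast. At every time 2 fell and 1 rose, 8.33% and 4.17% beside 10.4% and 11.2% of all tested genes. Of 19 glycolysis genes 16 were higher and 7 rose at every time (36.8% beside 11.2% of all tested genes), led by ENO2 (1.91) and PFKP (1.81). None of 28 ribosome biogenesis genes and none of 13 mitochondrially encoded genes moved the same way at every time, though 14 and 6 of them were higher on the shared contrast. Interferon-stimulated genes were split on the shared contrast, with 10 higher and 10 lower of 30. That is near the shares of all tested genes on this contrast, 30.4% higher and 33.4% lower. In MHC class I and antigen processing 11 of 15 were higher and 1 lower. At every time 3 rose (20% beside 11.2% of all tested genes), led by the peptide transporter gene TAP2 (1.73). Lysosomal genes were lower for 16 of 28 and higher for 7, with the protease gene CTSB higher by 1.55. At every time 6 fell and 4 rose, 21.4% and 14.3% beside 10.4% and 11.2% of all tested genes.

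**Figure D4:**
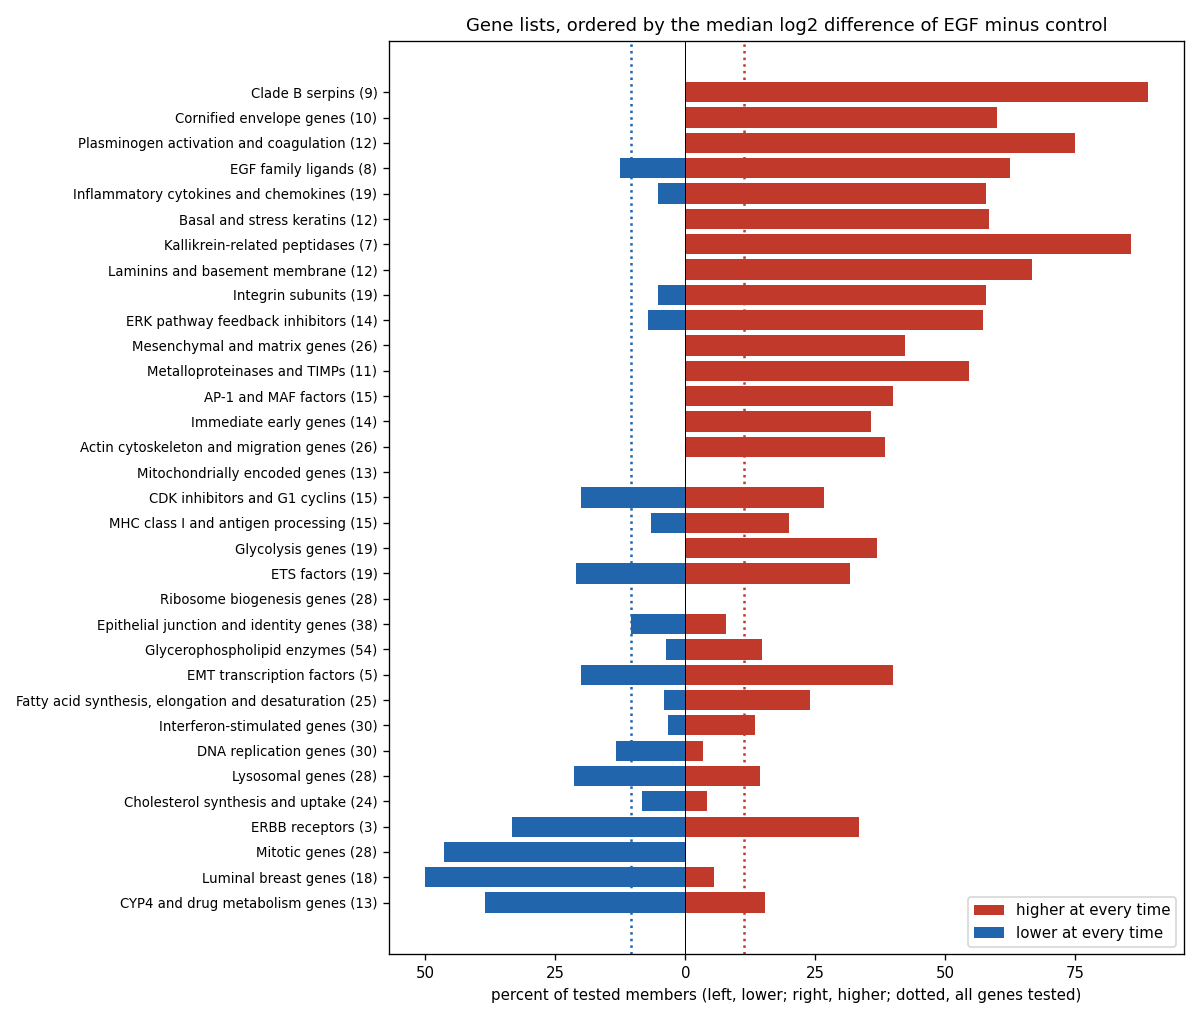
Percent of the tested members of each gene list (number tested in parentheses) that were higher (right) or lower (left) at every time. Dotted lines mark all tested genes, 11.2% and 10.4%. Clade B serpins and kallikreins reach furthest to the right, and luminal and mitotic genes furthest to the left.

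Direction was shared by the choice of genes, while the size of the change differed between times. The median log2 change of the genes that rose was 1.25 (12 h), 1.19 (24 h), 0.827 (48 h) and 1.23 (72 h). For the genes that fell it was -0.902, -0.802, -0.531 and -0.866. The change was weakest at 48 h for 1068 of the 1858 genes that rose (57.5%) and 1045 of the 1714 that fell (61%), beside 41.5% of all tested genes. It was strongest at 12 h for 764 and 670 of them (41.1% and 39.1%, beside 47.3% of all) and at 72 h for 707 and 598 (38.1% and 34.9%, beside 26.8%). In the test that the 4 EGF groups were equal, 1654 of the genes that rose (89%) and 1406 of those that fell (82%) passed, beside 82.5% of all tested genes. The genes were chosen with the same EGF libraries, so these shares are not independent of the choice. Between 72 and 12 h, 35.6% of all tested genes were higher at 72 h and 32% lower. Of the genes that rose, 682 were higher at 72 h (36.7%), 668 lower (36%) and 508 were not called. Of those that fell, 497 were higher at 72 h (29%) and 464 lower (27.1%). With 48 h left out, the genes that met the rule at the other times numbered 2770 higher rather than 1858 and 2804 lower rather than 1714. The sustained genes numbered 1375 higher rather than 922 and 1239 lower rather than 498. In that setting the rule asks for fewer times.

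**Figure D5:**
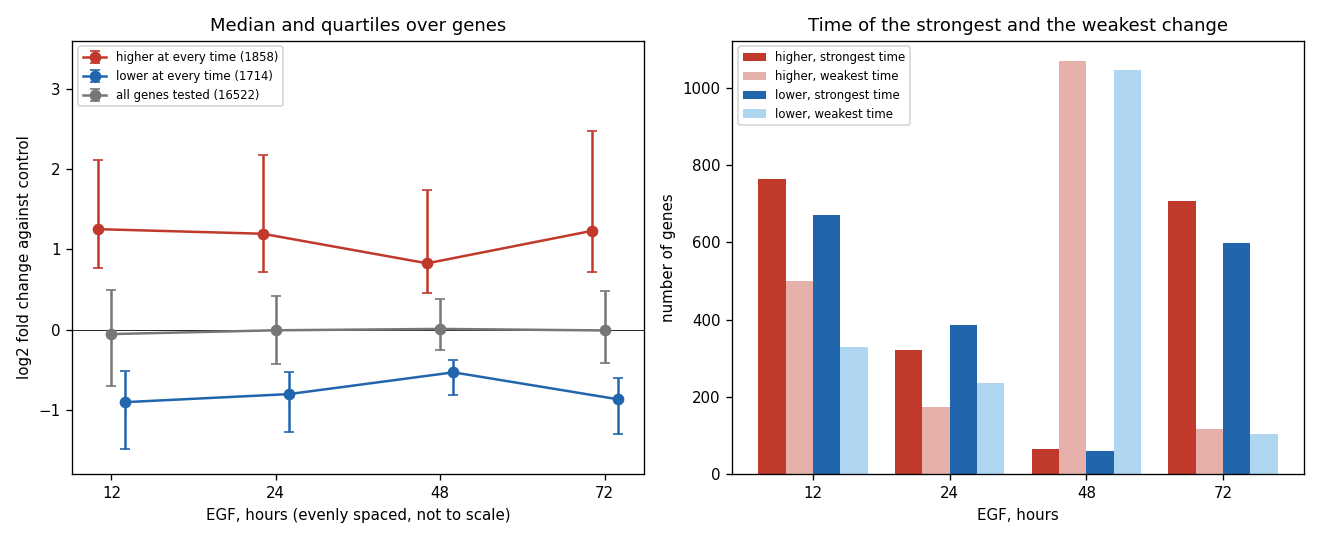
Left, median log2 fold change against control (y axis) by hours of EGF, with bars from the lower to the upper quartile over genes and the times evenly spaced. Right, number of genes with their strongest or weakest change at each time. The median of the genes that rose is 0.827 at 48 h and between 1.19 and 1.25 at the other times, and 48 h is the weakest time for most genes of both sets.

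A few genes gave nearly the same change at every time. C19orf33 was at 1.11 to 1.87 CPM in the controls and at 13.6 to 17.3, 14.7 to 15.7, 11.8 to 16.3 and 12.8 to 17.2 CPM at the 4 times. Its log2 changes lay between 3.18 and 3.32, and the EGF times all overlapped (adjusted p = 0.71 between them), though 49.3% of its exon bases overlap another gene on its strand, so its reads are uncertain. LIPE, hormone-sensitive lipase, PLOD3, a collagen lysyl hydroxylase, and TBX19 had log2 differences of 1.21, 1.15 and 1.21, with adjusted p values of 0.66, 0.25 and 0.38 between the EGF times. Among the genes that fell, the most even were ZNHIT6 (-1.25), ZNF138 (-1.28), DTD2 (-1.14) and PDGFC (-1.21), of which PDGFC, a growth factor, still differed between EGF times (adjusted p = 0.014). These genes were chosen for evenness, so a p that misses the threshold does not show equal levels.

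At the other end were the genes with the widest range over times. LINC00520, a noncoding RNA, was at 0 to 0.168 CPM in the controls. It was at 0.239 to 0.505 CPM at 12 h, 2.82 to 4.39 CPM at 24 h, 6.71 to 9.61 CPM at 48 h and 71.3 to 85.5 CPM at 72 h. PPBP, a platelet chemokine, went from 0.0545 to 0.354 CPM at 12 h to 17.4 to 20.5 CPM at 72 h, and SPINK1, a trypsin inhibitor, from 0.0545 to 0.166 CPM to 10.5 to 14.7 CPM. SMIM34B, which has a near-identical copy, did not climb at each step, at 0.11 to 0.218 CPM (12 h), 2.67 to 3.72 CPM (24 h), 1.77 to 3.19 CPM (48 h) and 14.7 to 21.9 CPM (72 h). FAM25A, of the strongest rises, was at 2.88 to 3.92 CPM (12 h), 5.51 to 7.71 CPM (24 h), 3.9 to 4.79 CPM (48 h) and 14.8 to 19.2 CPM (72 h), and 73.3% of its exon bases overlap another gene on its strand, so its reads are uncertain. Among the genes that fell, the noncoding genes AL034374.1, LINC02159 and AP002448.1 had no count at 12 h and 0.554 to 0.685, 0.363 to 0.636 and 0.277 to 0.589 CPM at 48 h, with 0.683 to 2.11 CPM over the controls of all of them.

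Genes just inside and outside the 1.5-fold limit show where the sustained set ends. NCEH1 and LINC01348 were just inside, each with a smallest log2 change of 0.585, and PHLDA3 (0.585) and EPS8 (0.584) just outside. Among the lower genes ANAPC15 and BPHL (both -0.585) were inside and DMAP1 (-0.584) and LINC00680 (-0.583) outside.

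Some of the sustained genes lay side by side. Among 13328 tested coding genes taken in chromosome order, there were 15 runs of at least 3 sustained higher neighbours, with 59 genes in all, and 3 such runs of lower genes, with 9. The longest held 6 genes each. One was SERPINB5, SERPINB4, SERPINB3, SERPINB7, SERPINB2 and SERPINB8 (chr18:63476761-64019779), and the other RASSF6, CXCL8, CXCL1, PPBP, CXCL3 and CXCL2 (chr4:73571550-74099293). Further along chromosome 4, EPGN, EREG and AREG formed a run (chr4:74308473-74455009). SPRR3, SPRR1B, SPRR2D, SPRR2A and PRR9 (chr1:153001747-153219317) and KRT86, KRT81, KRT75, KRT6B and KRT6A (chr12:52249300-52493257) formed others. A lower run held the zinc finger genes ZNF235, ZNF233 and ZNF112 on chromosome 19. Neighbours of one family can share reads, so these runs do not count as separate measurements. Genes named ZNF, which mostly encode zinc finger transcription factors, made up 6.02% of the sustained lower genes, 0.542% of the sustained higher and 3.08% of all tested.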

How the data were processed

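RNA from MDA-MB-468 was made into Lexogen Corall mRNA libraries and sequenced as single-end reads. The authors deposited whole-number counts per gene and library, not normalized, on hg38 per the labels. The aligner, the annotation, the use of strand and the handling of unique molecular identifiers are not given in the sources used here, so PCR copies and overlapping or near-identical genes may affect counts. The authors also deposited normalized values, a score from DESeq2 that differs from the counts by a factor per gene and library, used here in 1 alternative only. The 10 tables hold the same counts, beside fold changes and p-values of the authors' own comparisons, which were not used.

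Counts were analysed in edgeR 4.0.16 (R 4.3.3) with filterByExpr, TMM scaling, and robust quasi-likelihood tests with the 5 group means (n = 4) fitted together, with Benjamini-Hochberg adjustment. The prior count for log2 fold changes was 0.125. The labels call the replicates biological and number them 1 to 4, and no 2 libraries of a group were alike within sampling noise. A group with no library over 3 counts gets only a bound on its fold, set against 3 counts per library. Gene positions and exon overlaps were taken from GENCODE 29 (GRCh38), and promoters from RefSeq.

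Named in each direction were the 14 sustained genes with a mean of at least 5 CPM whose weakest log2 change was largest, the 4 most even ones of at least 2-fold and 5 CPM, the 6 sustained genes with the largest difference in CPM, the 4 with the widest range over times and the 2 nearest each side of the fold limit, besides genes of the lists. Of these, 1 of the 64 genes of the rule and some of the lists are not reported here. The members and lists were chosen with earlier results of these data known. Alternatives were other scalings, filters and tests (limma 3.58.1, DESeq2 1.42.0), a replicate block, and each library or EGF time left out. Tested on simulated data with 16082 genes, the shared contrast called 94 of 100 genes changed 2-fold and 99 of 99 changed 4-fold, with 3 unchanged genes called. The changed genes were few, not low in counts, balanced between up and down, and changed alike at every EGF time. In the data most genes were called, so the simulation does not test the scaling or the rate of false calls here.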

Additional observations from a re-analysis of the deposited data

Results flagged for a closer look

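In 10 of the 316 groups of 4 values examined, for named genes and for the count shares of libraries, 1 library lay far from the others, where chance alone picks out about 1 in 20 groups. With EGF, SH2D1B had a library at 4.45 CPM at 24 h against 7.18 to 7.4 CPM in the others, and SPRR1B one at 46.6 CPM at 24 h against 59.7 to 61.2 CPM. MT2A had a library at 2560 CPM at 72 h against 3180 to 3200 CPM, and PPBP one at 1.86 CPM at 48 h against 4.16 to 4.62 CPM. Among the genes that fell, ATP13A5 had a library at 2.33 CPM at 72 h against 1.66 to 1.73 CPM, SELENOP one at 6.23 CPM at 24 h against 3.22 to 3.72 CPM, CYP4B1 one at 1.42 CPM at 12 h against 1.72 to 1.77 CPM, and ELAPOR1 one at 43.3 CPM at 12 h against 47.3 to 48.1 CPM. In the control, PHLDA3 had a library at 6.49 CPM against 9.37 to 9.9 CPM, and AL034374.1 one at 2.06 CPM against 1.39 to 1.47 CPM.

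The effect of EGF differed between 72 and 12 h, by the test of that difference, for 32 of 55 genes named by rule, leaving aside those at the fold limit. Counted here are genes that also differed in the test over the 4 EGF times and had a library over 3 counts at both 12 and 72 h. By the test between 72 and 12 h alone, 35.6% of all tested genes were higher at 72 h and 32% lower. Genes named for the widest or the narrowest range over the EGF times were picked by values that these tests use. APCDD1 (-0.443) passed between 72 and 12 h but not over the 4 times, and 5 genes passed with 3 counts or fewer in every library of 1 of these groups, CYP4Z2P at 72 h and SPINK1, AL034374.1, LINC02159 and AP002448.1 at 12 h. Values are log2 differences of 72 h minus 12 h. Among the genes that rose, the level was higher at 72 h for LINC00520 (7.51), SMIM34B (6.9), PPBP (6.49), FAM25A (2.29), SPRR1B (2.2), CEACAM5 (1.89), MYH16 (1.67), SH2D1B (1.4), KRT34 (1.04), TMSB4X (0.916), ALOXE3 (0.577) and MT2A (0.422). The first 3 of these had few counts at 12 h, so their differences depend on the prior count. It was lower at 72 h for KRT6A (-2.27), CXCL8 (-2.04), ANXA2 (-1.23), EGFR (-1), CD44 (-0.863), IL1RL1 (-0.4) and S100A11 (-0.374). Among the genes that fell, the level was lower still at 72 h for CYP4Z1 (-4.58), CRISP3 (-4.31), ELAPOR1 (-2.04), ATP13A5 (-1.05), CD24 (-1), SCPEP1 (-0.829), FAM210B (-0.674), IGFBP5 (-0.519), XBP1 (-0.242) and MGP (-0.22). It had come back in part for AP001636.3 (1.43), SLC15A2 (0.51) and ALDH3B2 (0.445).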

How the results depend on the processing

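Of 296 recomputed counts, 277 stayed within 1.5 times the reported one. Some of these could not move. The prior count does not enter the tests, so it leaves counts without a fold limit unchanged. The test against 1.5-fold leaves the test among EGF times as it was. With 12 or 72 h left out, the count for 72 against 12 h compared the last and first times that remained. For 56 genes named by rule, 816 log2 differences were recomputed, and all kept their direction and stayed past the threshold. The 8 genes nearest the fold limit were not recomputed, and not every alternative was recomputed for the 56. The 56 were picked from the same libraries for moving the same way at every time. Their outcome was therefore largely fixed by the choice and does not test how firm the calls of other genes are. Tested against a 1.5-fold change instead of no change, the shared contrast called 1832 genes higher and 1495 lower, 718 and 232 moved the same way at every time, 230 stayed sustained lower, and 383 differed between 72 and 12 h. With at least 10 counts in every library, 326 genes were sustained lower. With 48 h left out, 2770 genes were higher and 2804 lower at the other times, and 1375 and 1239 were sustained. Of the genes that moved the same way, 3628 differed between 72 and 12 h, against 2311. The rule then asks for fewer times.

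Chosen after seeing the data, factors per gene from the deposited normalized values left 11956 genes (every library at 20 counts or more), of which 3567 were lower on the shared contrast, 1159 higher and 973 lower at every time, 560 and 274 sustained, 9089 different between EGF times and 1251 between 72 and 12 h. With TMM on the same genes, 592 and 259 were sustained.

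Leaving out each library in turn gave 4711 to 5140 genes higher and 5126 to 5600 lower on the shared contrast, 1742 to 2047 and 1569 to 1848 at every time, 923 to 1064 and 491 to 619 sustained, 13366 to 14025 different between EGF times and 2093 to 2568 between 72 and 12 h. Replicate numbers did not pair the samples: 14 of 40 same-numbered pairs correlated over 0.1, and 4 of 20 libraries correlated best with their own number. With a replicate block, 1911 genes were higher and 1769 lower at every time. Genes near 3 counts in the control or with EGF give bounds only.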
